A study of Mus musculus with 36 samples.

Results

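The 10 genes described here encode MHC class II and the surface ligands and receptors that accompany antigen presentation, and they were taken by name from the 43472 rows of the count table. They are the class II chains H2-Aa, H2-Ab1 and H2-Eb1, the invariant chain Cd74, the class II transactivator Ciita, and the costimulatory or checkpoint genes Cd40, Cd80, Cd86, Cd274 and Cd276. RNA was counted by 3′ mRNA sequencing in enteric glial cells (EGCs), the glia of the gut wall, grown from neurospheres of embryonic C57BL/6J intestines of wild-type (WT) genotype. Cells were left unstimulated, or received medium conditioned overnight by digested healthy colon (H-CM) or by digested orthotopic MC38 colon tumors (TME-CM), for 6 h, 12 h or 24 h, with 4 libraries in each of the 9 groups. The embryonic neurospheres were dissociated and differentiated in serum before stimulation, so that all 36 libraries share this culture history. Both media came from mixed digested tissue and not from 1 cell type. The labels do not say whether the 4 libraries of a group came from separate cultures, so that the p values measure the spread between these libraries, which may be technical.

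Library totals ranged from 13518 to 5244763 counts at 6 h, from 2005239 to 5961933 at 12 h and from 1608018 to 7552509 at 24 h. Levels are given as CPM, counts divided by the library's total after TMM scaling within its time point. In these units, 3 counts in a single library corresponded to 0.546 to 98.1 CPM at 6 h and to 0.37 to 1.71 CPM at 24 h. At 6 h, H-CM replicate 4 held the lowest total, and TME-CM replicates 1 and 3 showed 10120 and 10433 detected genes at 4158689 and 2919357 counts, against 13481 and 13796 genes in replicates 2 and 4. The glial markers Sox10 and S100b were present in every group at 24 h, with means of 72.5 ± 12.9 and 75.3 ± 12.7 CPM (SD, n = 4) in unstimulated EGCs, whereas Gfap reached 3.91 ± 0.858 CPM. Of 8 glial markers, 0 were called in TME-CM EGCs of 24 h set against H-CM (2 at an unadjusted p under 0.05, 1 by DESeq2). Smooth muscle and fibroblast markers were also present in all groups, at higher sums, although sums of different genes do not give shares of cells. In TME-CM EGCs of 24 h the 8 glial markers summed to 259 to 345 CPM. The 5 smooth muscle markers summed to 1814 to 2655 CPM there, and the 4 fibroblast markers to 5216 to 6651 CPM. The paper reports only minimal expression of other cell types' markers in unstimulated cultures, with Prkg1 and Foxp2 for smooth muscle and Pdgfra and Wt1 for mesenchymal cells. A level in these bulk libraries is a mean over all cells of the culture. Whether the markers above come from other cell types or from the EGCs themselves cannot be told. Fewer cells of a type also cannot be told apart from less RNA per cell.

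MHC class II molecules display peptides from endocytosed protein to CD4+ T cells. The alpha and beta chains pair in the endoplasmic reticulum with the invariant chain (Cd74), which blocks the groove until it is degraded. Their genes share a promoter module of X and Y boxes that is bound by RFX, CREB and NF-Y and switched on by CIITA, itself induced by interferon gamma in many cells that are not professional antigen-presenting cells. T cell activation further depends on costimulation through CD80 and CD86, the ligands of CD28, and on CD40, a receptor of the TNF receptor family on the presenting cell. PD-L1 (Cd274) and B7-H3 (Cd276) are B7 family ligands, of which PD-L1 restrains T cells through PD-1.

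Cd40, at 12 h and 24 h, and H2-Ab1, at 24 h, were called higher in TME-CM EGCs than in both controls. H2-Aa and Cd74 at 24 h and Cd274 at 12 h were called by edgeR only against unstimulated EGCs. At 24 h, 4 of the 7 members tested were higher in TME-CM than in unstimulated EGCs (H2-Aa, H2-Ab1, Cd74 and Cd40) and 0 were lower, where 9.52% of all genes tested were called in either direction. Against H-CM EGCs at 24 h, 2 of 7 were higher (H2-Ab1 and Cd40), beside 5.4% of all genes. At 12 h, 2 of 6 were higher than in unstimulated EGCs (Cd40 and Cd274), beside 4.41%, and 1 of 6 was higher than in H-CM EGCs (Cd40), beside 1.89%. A call is an adjusted p under 0.05 in edgeR, with p values adjusted over all genes kept at the time point. Both contrasts of a time use the same TME-CM libraries and are not independent of each other. The filter on low counts also shaped these numbers, since a member could pass it through its high TME-CM libraries. At 24 h Cd74 had 23, 30 and 24 counts in TME-CM replicates 2 to 4, and at most 8 in a control library. H2-Aa had 10 to 36 counts in TME-CM and at most 16 in a control library. Cd80, with means of 0.604 CPM in TME-CM and 1.73 CPM in unstimulated EGCs, did not pass. In 1 fit of all 36 libraries every 24 h call was lost, with adjusted p between 0.108 and 1.

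H-CM EGCs were not called different from unstimulated EGCs in any member. The counts were 0 of 3 members at 6 h, 0 of 6 at 12 h and 0 of 7 at 24 h, beside 0%, 0.403% and 2.03% of all genes, and DESeq2 also called 0 at each time. At an unadjusted p under 0.05, edgeR gave 2 members at 24 h, H2-Aa and H2-Ab1, and 0 at the other times. Their log2 fold changes of H-CM over unstimulated EGCs at 24 h were 1.77 (adjusted p = 0.402) and 1.73 (adjusted p = 0.1145). Those of TME-CM over H-CM EGCs at 24 h were of similar size, 1.80 and 1.76. At 6 h, TME-CM EGCs were not called different either, with 0 of 3 members against H-CM (0.0972% of all genes) and 0 of 3 against unstimulated EGCs (0.454%). In each of these, Cd40 alone had an unadjusted p under 0.05, and DESeq2 called 0, with 2 adjusted p left as NA against H-CM. Counts simulated with a log2 change of 2 were recovered in 23.6% of 182 genes at 6 h, 76.9% of 195 at 12 h and 92.3% of 194 at 24 h, for TME-CM set against H-CM. These shares are over changed genes of any level and do not give the recovery at the low counts of most members. No share was computed for H-CM against unstimulated EGCs.

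Ciita and Cd86 were near zero throughout, which means a group mean under 1 CPM in all 9 groups. Ciita, the master regulator of class II transcription (chromosome 16, 10480014 to 10531064, GRCm38.p6), had 3 counts in all 36 libraries, each in a different unstimulated library. In TME-CM EGCs it had 0 counts at each time, which allows a level of up to 0.208, 0.19 and 0.148 CPM over the 4 libraries at the 3 times in turn, taking 3 counts as the limit. Its exons overlap those of Dexi on the opposite strand over 329 bases, and whether the authors counted by strand is not given in the sources used here. The limits above do not cover reads that may have gone uncounted in this overlap. Cd86 (chromosome 16, 36568956 to 36666158) had 13 counts in all and was at 0 in 31 of 36 libraries. Its highest group mean, 0.981 CPM in unstimulated EGCs of 6 h, was just under the limit. Its 5 nonzero libraries were 4 of 6 h or 12 h with 1 to 3 counts, and TME-CM replicate 1 at 12 h with 5 counts. All 12 libraries of 24 h were at 0.

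Cd80 (chromosome 16, 38457430 to 38495958) was near zero in 6 of the 9 groups and above 1 CPM only in the mean of the unstimulated EGCs. It reached 3.71, 0.728, 0.802 and 1.68 CPM in the 4 unstimulated libraries of 24 h, against 1.46, 0, 0.762 and 0.19 CPM in TME-CM and 0.453, 1.1, 0.247 and 0 CPM in H-CM. The 3 groups overlapped, and with 109 counts over all libraries Cd80 did not pass the filter at any time, as was also the case for Ciita and Cd86. The class II genes were each near zero in 1 or 2 groups: H2-Aa in H-CM at 12 h and unstimulated EGCs at 24 h, H2-Ab1 and Cd74 in unstimulated EGCs at 24 h, and H2-Eb1 in TME-CM EGCs at 6 h. Cd40, Cd274 and Cd276 were above 1 CPM in the mean of every group. A group mean weighs its 4 libraries equally, so that at 6 h a few counts in 1 library can lift it over 1 CPM. Cd274 in unstimulated EGCs of 6 h had 6 counts in all, of which 3 gave 14.7 CPM in replicate 3. H2-Ab1 in TME-CM EGCs of 6 h had 8 counts, and Cd80 in unstimulated EGCs of 6 h had 7. Cd86 in unstimulated EGCs of 6 h, with a mean just under 1 CPM, had 5 counts. Whether these are near zero at 6 h is thus not settled by the means.

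H2-Ab1, the beta chain of the I-A molecule (chromosome 17, 34263227 to 34269418), was the class II gene that was called against both controls. At 24 h it stood at 5.85, 10.03, 6.25 and 13.51 CPM in the 4 TME-CM libraries, at 2.49, 3.11, 3.33 and 0.571 CPM in H-CM and at 1.14, 0.546, 0.642 and 0.84 CPM in unstimulated EGCs. All TME-CM libraries were above all others, and H-CM replicate 4 overlapped the unstimulated libraries. Relative to H-CM the log2 fold change was 1.76 (SE 0.45, adjusted p = 0.0194), and relative to unstimulated EGCs it was 3.48 (SE 0.51, adjusted p = 4.26e-05). At 12 h, TME-CM EGCs had 5.89, 5.8, 6.4 and 11.5 CPM, H-CM EGCs 4.13, 0.538, 2.38 and 0.739 CPM and unstimulated EGCs 3.15, 0, 4.37 and 1.8 CPM. The TME-CM libraries were again above all others. A log2 fold change of 1.97 over H-CM (95% interval 0.29 to 3.64) was not called (adjusted p = 0.348). The 24 h call against H-CM was lost without TME-CM replicate 4 (log2 1.48, adjusted p = 0.127) and without H-CM replicate 4 (1.55, adjusted p = 0.051).

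H2-Aa, the I-A alpha chain (chromosome 17, 34282744 to 34287823), stood at 1.63, 6.54, 5.49 and 5.33 CPM in the TME-CM libraries of 24 h. H-CM EGCs had 0.905, 0.732, 1.97 and 1.71 CPM, and unstimulated EGCs 0.571, 0.364, 0.642 and 0 CPM. TME-CM replicate 1 lay within the H-CM range, whereas all TME-CM and all H-CM libraries were above the unstimulated ones. Its log2 fold change was 3.57 over unstimulated EGCs (SE 0.73, adjusted p = 0.00171) and 1.80 over H-CM (95% interval 0.48 to 3.13, adjusted p = 0.121, not called). At 12 h H2-Aa was below the filter, with 0.786 to 3.37 CPM in TME-CM EGCs and 0 to 5.99 CPM in unstimulated EGCs.

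H2-Eb1, the beta chain of I-E (chromosome 17, 34305867 to 34316674), was not called in any comparison. In C57BL/6 mice the I-E molecule is not displayed because the alpha chain gene is defective, while the beta chain is transcribed. H2-Eb1 stood at 1.3, 5.23, 5.94 and 3.43 CPM in TME-CM EGCs of 24 h, 1.13, 0.915, 0.863 and 2.28 CPM in H-CM and 1.71, 2.55, 2.08 and 1.12 CPM in unstimulated EGCs. TME-CM replicate 1 lay inside both control ranges. The log2 fold change was 1.74 over H-CM (95% interval 0.50 to 2.99, adjusted p = 0.107) and 1.06 over unstimulated EGCs (95% interval -0.08 to 2.21, adjusted p = 0.315). DESeq2 called the former (adjusted p = 0.0466). At 12 h H2-Eb1 stood at 1.26, 10.4, 3.92 and 4.72 CPM in TME-CM EGCs, 1.65, 2.51, 0 and 0.739 CPM in H-CM and 0.526, 1.28, 4.1 and 2.08 CPM in unstimulated EGCs. These ranges overlapped (adjusted p of 0.447 and 0.718).

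Cd74, which encodes the invariant chain, stood at 0.65, 10.03, 4.57 and 4.57 CPM in TME-CM EGCs of 24 h. H-CM EGCs had 0.679, 1.46, 0.247 and 2.28 CPM, and unstimulated EGCs 0.856, 0, 1.28 and 0.42 CPM. TME-CM replicate 1 fell within both control groups and the other 3 libraries were above them. For Cd74 the log2 fold change was 2.85 over unstimulated EGCs (SE 0.83, adjusted p = 0.0285) and 2.23 over H-CM (95% interval 0.53 to 3.94, adjusted p = 0.141, not called). The call over unstimulated EGCs was lost when any 1 of 5 libraries was left out, TME-CM replicates 2, 3 and 4 and unstimulated replicates 2 and 4, with adjusted p between 0.0608 and 0.0961, and with the replicate number as a block (log2 2.64, adjusted p = 0.0781). At 12 h the TME-CM libraries had 4.42, 4.56, 2.06 and 4.45 CPM of Cd74, the H-CM libraries 7.15, 1.25, 0 and 0.295 CPM and the unstimulated libraries 1.58, 4.71, 0.82 and 0.416 CPM. H-CM replicate 1 was the highest of all 12, and no difference was called (adjusted p of 0.841 and 0.819).

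**Figure D1:**
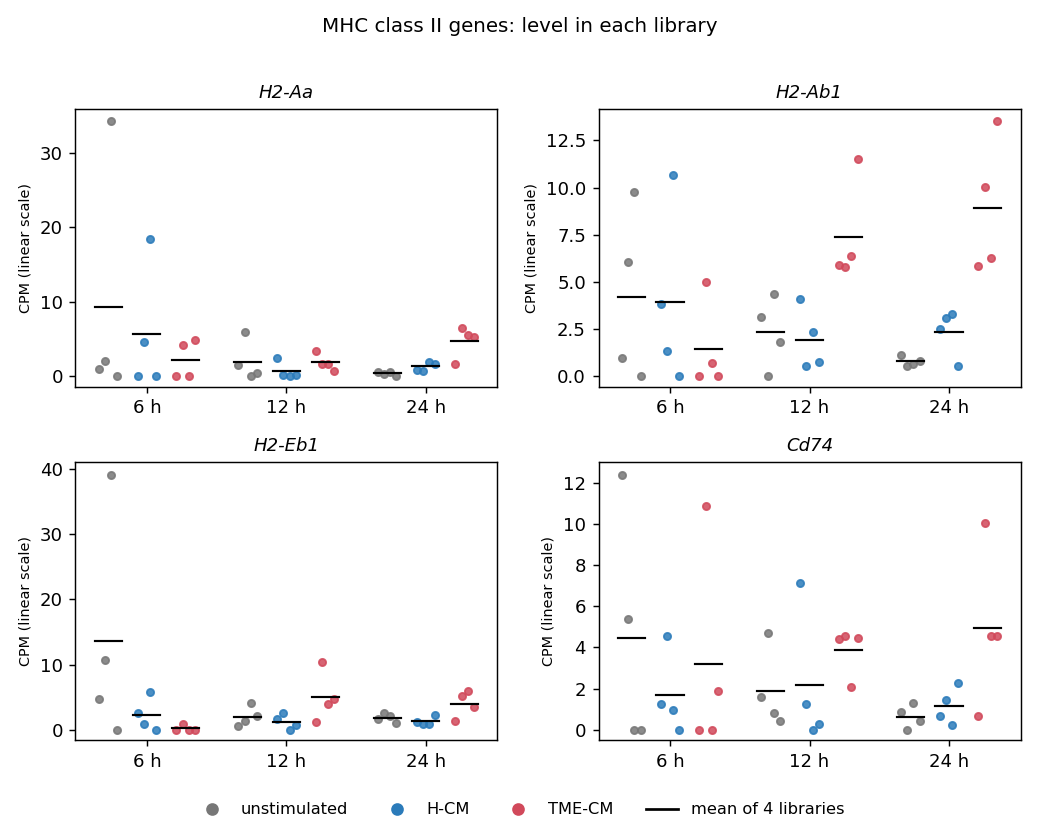
CPM on a linear axis of H2-Aa, H2-Ab1, H2-Eb1 and Cd74 in each of the 36 libraries, by time and stimulation; points are libraries (replicates 1 to 4 from left to right) and bars are means of 4. At 24 h H2-Ab1 is at 5.85 CPM or more in every TME-CM library and at 3.33 CPM or less elsewhere, and the 6 h libraries scatter most, up to 39.1 CPM for H2-Eb1 in 1 unstimulated library of 256453 counts.

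At 6 h the class II genes were below the filter and are given as counts. Over the 4 genes together, the libraries held 20, 36, 17 and 0 counts in unstimulated EGCs, 6, 25, 37 and 0 in H-CM and 0, 25, 2 and 36 in TME-CM EGCs. Each group thus had a library at 0, among them unstimulated replicate 4 of 4631102 counts and TME-CM replicate 1 of 4158689 counts, and no order of the groups was read from these libraries. Summed over the 4 genes, the level at 24 h was 9.43 to 31.8 CPM in TME-CM EGCs, 5.21 to 6.85 CPM in H-CM and 2.38 to 4.65 CPM in unstimulated EGCs, so that the 3 groups did not overlap. At 12 h it was 14.0 to 22.4 CPM in TME-CM, 1.92 to 15.4 CPM in H-CM and 4.72 to 12.0 CPM in unstimulated EGCs, and H-CM replicate 1 overlapped the TME-CM libraries.

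Since macrophages, dendritic cells and B cells express class II strongly, their markers were measured in the same libraries. The 14 macrophage markers summed to 90.4 to 449 CPM in TME-CM EGCs of 24 h, 91.3 to 412 CPM in H-CM and 70.9 to 286 CPM in unstimulated EGCs, with medians of 192, 205 and 164 CPM, so that the groups overlapped. Over all 36 libraries most counts of these markers were on Lyz2, 15909, followed by Itgam with 2276. The sums followed the replicate number, with replicates 1 and 2 above replicates 3 and 4 in each of the 6 groups of 12 h and 24 h. None of the 14 was at 0 counts in a group of 24 h, and 2 of them were below 1 CPM in each group, Aif1 and Cx3cr1. edgeR called 0 of the 12 tested at 12 h and at 24 h in each comparison of stimulations, DESeq2 likewise 0, and at an unadjusted p under 0.05 there were 0 at 24 h and at most 1 at 12 h. Of all genes, 0.403% to 4.41% were called in these comparisons at 12 h and 2.03% to 9.52% at 24 h. These tests had no replicate block, so that the spread with the replicate number entered their error. They do not show that macrophage content was equal. TME-CM replicate 2 of 24 h had both the highest macrophage sum, 449 CPM, and the highest class II sum, 31.8 CPM. Its share of counts on the entry Yam1 was 35.1%, against 13.7% to 15.1% in the other 3. TME-CM replicates 1, 3 and 4 had class II sums of 9.43, 22.3 and 26.8 CPM at macrophage sums of 251, 133 and 90.4 CPM. H-CM replicates 1 to 4 had class II sums of 5.21, 6.22, 6.41 and 6.85 CPM at macrophage sums of 260, 412, 150 and 91.3 CPM. The part of macrophages in these class II levels was not tested.

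Dendritic cell and lymphocyte markers were scarce. The 5 dendritic cell markers summed to 5.67 to 7.32 CPM in TME-CM EGCs of 24 h, against 3.40 to 9.37 CPM in H-CM and 3.99 to 10.4 CPM in unstimulated EGCs, most of it Zbtb46. Over all 36 libraries Xcr1 had 0 counts and Flt3 had 1. Itgax was at 0 in both H-CM and TME-CM EGCs of 24 h. The 4 B cell markers summed to at most 0.728 CPM and the 4 T cell markers to at most 4.8 CPM in any library of 24 h, and Cd79a and Cd8a were at 0 counts in all libraries. Smooth muscle markers did move with the stimulation, with 5 of 5 lower at 24 h in TME-CM than in unstimulated EGCs and summed levels of 1814 to 2655 CPM against 7601 to 8728 CPM, and 3 of 5 lower than in H-CM (3506 to 4289 CPM). The 4 fibroblast markers summed to 5216 to 6651 CPM in TME-CM EGCs, against 3931 to 4839 CPM in H-CM and 4706 to 6361 CPM in unstimulated EGCs, with 3 of 4 called higher than in H-CM, and 2 higher and 1 lower than in unstimulated EGCs. The part of these cell types in the levels of the members was not tested.

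**Figure D2:**
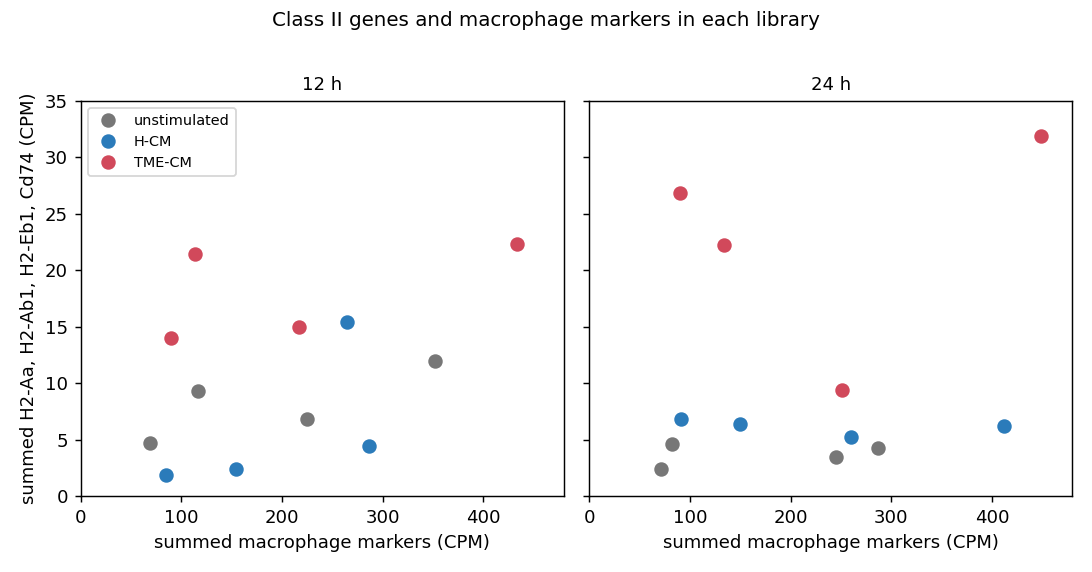
Summed CPM of H2-Aa, H2-Ab1, H2-Eb1 and Cd74 against the summed CPM of 14 macrophage markers, 1 point per library, at 12 h (left) and 24 h (right); both axes are linear. At 24 h the TME-CM libraries lie at 9.43 to 31.8 CPM of class II and 90.4 to 449 CPM of macrophage markers. The H-CM libraries lie at 5.21 to 6.85 CPM of class II and 91.3 to 412 CPM of macrophage markers.

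For 5 of the 10 members a window of 250 bases upstream of an annotated start was at hand, from RefSeq on GRCm38.p6. Of the class II genes H2-Aa and H2-Eb1, H2-Aa was called only over unstimulated EGCs at 24 h, and H2-Eb1 was not called. Over H-CM at 24 h their log2 fold changes were 1.80 and 1.74, neither called by edgeR. Of the B7 family ligands Cd274 and Cd276, Cd274 was called only over unstimulated EGCs at 12 h, and Cd276 was not called. The windows of these 4 genes are printed in lower case, 5′ to 3′ on the strand of the gene, to set their class II promoter letters side by side. They lie at chr17:34287824-34288073 (minus strand, H2-Aa), chr17:34305617-34305866 (plus strand, H2-Eb1), chr19:29367188-29367437 (plus strand, Cd274) and chr9:58555034-58555283 (minus strand, Cd276). Capitals mark matches on either strand to ATTGG (core of the Y box bound by NF-Y), TGACG (core of the X2 box bound by CREB), TTCNNNGAA (the GAS element) and a loose kappa B pattern.
H2-Aa: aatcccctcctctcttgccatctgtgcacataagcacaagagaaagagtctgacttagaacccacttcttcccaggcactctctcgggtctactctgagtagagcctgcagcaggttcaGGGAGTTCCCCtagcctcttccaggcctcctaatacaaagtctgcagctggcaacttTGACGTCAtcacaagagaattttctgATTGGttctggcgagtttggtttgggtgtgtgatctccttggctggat
H2-Eb1: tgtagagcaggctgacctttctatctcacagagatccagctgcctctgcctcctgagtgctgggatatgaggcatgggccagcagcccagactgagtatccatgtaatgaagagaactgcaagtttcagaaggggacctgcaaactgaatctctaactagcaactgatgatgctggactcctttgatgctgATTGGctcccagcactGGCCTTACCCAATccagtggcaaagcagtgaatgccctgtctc
Cd274: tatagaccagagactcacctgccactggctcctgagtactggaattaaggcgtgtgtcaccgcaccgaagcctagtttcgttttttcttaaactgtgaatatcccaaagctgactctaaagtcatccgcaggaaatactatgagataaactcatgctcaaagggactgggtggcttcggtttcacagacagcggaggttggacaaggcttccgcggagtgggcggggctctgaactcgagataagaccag
Cd276: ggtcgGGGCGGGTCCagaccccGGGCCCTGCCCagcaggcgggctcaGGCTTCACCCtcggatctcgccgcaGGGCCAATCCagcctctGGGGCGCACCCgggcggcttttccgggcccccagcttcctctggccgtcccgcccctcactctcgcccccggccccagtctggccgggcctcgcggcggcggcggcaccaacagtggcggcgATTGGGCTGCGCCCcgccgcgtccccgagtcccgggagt
H2-Aa held TGACG on both strands, in a palindrome 67 to 74 bases before the start, and ATTGG 44 to 48 bases before it, an X2 and a Y core in the order known for class II promoters. H2-Eb1 held ATTGG 55 to 59 bases before its start and CCAAT, the same core on the opposite strand, at 31 to 35 bases, with no TGACG. Cd274 held none of the 4 patterns in its window, which precedes a start inside the gene span and not its first base, while the other 3 windows abut the first base of the gene. Cd276 held the Y core at 2 places. The window of Cd80, a further B7 family ligand that was not tested, held 2 kappa B matches and none of the other 3 patterns. Like that of Cd274, the Cd80 window precedes a start inside the gene span. The kappa B pattern overlapped a Y core in H2-Eb1 and in Cd276. Of all 32851 windows of the same length, 33.8% held ATTGG, 17.8% TGACG, 7.02% TTCNNNGAA and 45.8% the kappa B pattern, so that these letters are common.

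Cd40, the TNF receptor family member through which T cells license presenting cells (chromosome 2, 165055614 to 165071654), rose against both controls at 12 h and at 24 h. At 12 h the TME-CM libraries stood at 52.6, 73.7, 51.8 and 98.0 CPM, against 21.5, 22.6, 9.27 and 20.7 CPM in H-CM and 5.26, 28.2, 18.3 and 17.8 CPM in unstimulated EGCs. At 24 h they stood at 22.9, 42.3, 32.8 and 40.5 CPM, against 15.8, 12.6, 12.6 and 12.6 CPM in H-CM and 10.8, 15.8, 12.7 and 17.6 CPM in unstimulated EGCs. At both times every TME-CM library was above every control library, and the 2 control groups overlapped.

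Over H-CM, Cd40 differed by a log2 fold change of 1.89 at 12 h (SE 0.36, adjusted p = 0.00583) and 1.35 at 24 h (SE 0.22, adjusted p = 0.000524), or 3.71-fold and 2.55-fold. Over unstimulated EGCs it was 1.97 at 12 h (SE 0.37, adjusted p = 0.00182) and 1.25 at 24 h (SE 0.22, adjusted p = 0.000354). The calls held without each library of the groups compared. In 1 fit of all 36 libraries the 12 h calls held (adjusted p of 0.0477 and 0.0119), and both 24 h calls were lost (0.438 and 0.29) at nearly the same fold changes. At 6 h Cd40 stood at 50.4, 44.3, 28.8 and 41.5 CPM in TME-CM EGCs, at 11.5, 10.96, 0 and 32.7 CPM in H-CM and at 10.5, 12.8, 14.7 and 3.09 CPM in unstimulated EGCs. The H-CM value of 32.7 CPM is 1 count in the library of 13518 counts, and the log2 fold change of 2.21 over H-CM had a 95% interval of 0.20 to 4.22 and was not called (adjusted p = 0.804).

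Among the 6 groups of 12 h and 24 h, the mean of Cd40 was highest in TME-CM EGCs of 12 h (69.0 ± 21.8 CPM, SD, n = 4), followed by TME-CM EGCs of 24 h (34.6 ± 8.84 CPM), and the other 4 groups lay between 13.4 ± 1.63 and 18.5 ± 6.2 CPM and overlapped. In 1 fit of these 24 libraries, TME-CM EGCs were lower at 24 h than at 12 h by a log2 fold change of -1.13 (SE 0.29), which missed the threshold (adjusted p = 0.067).

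**Figure D3:**
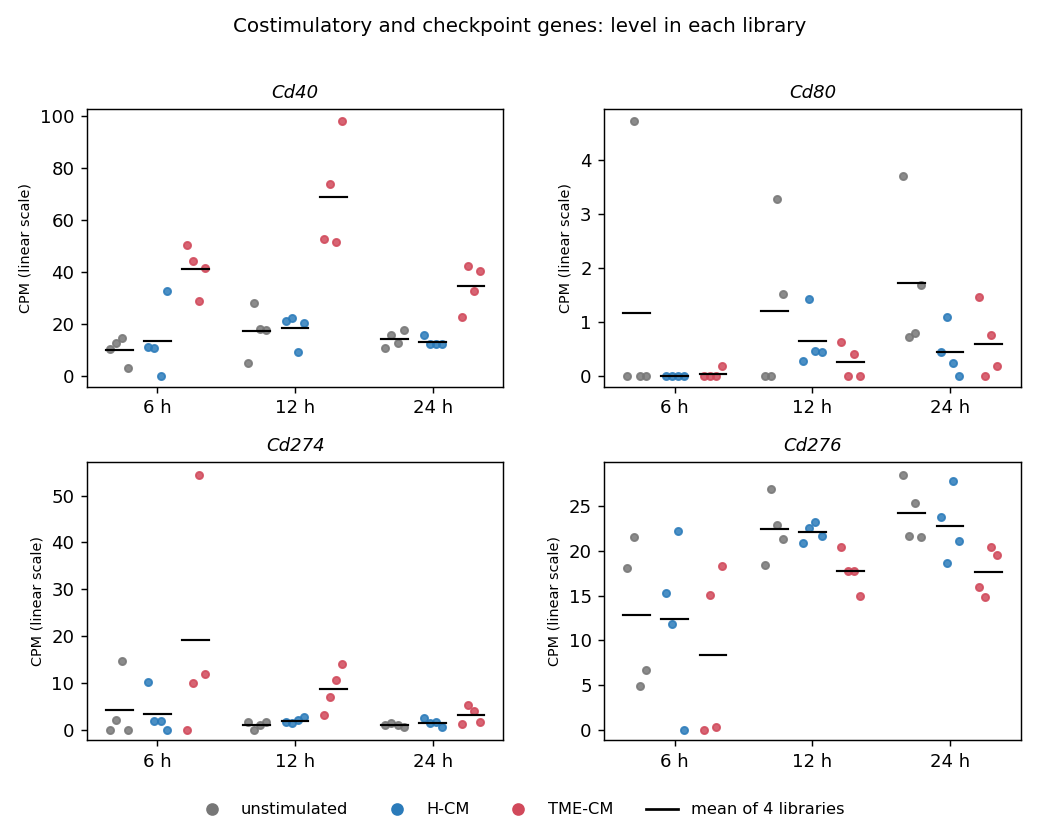
CPM on a linear axis of Cd40, Cd80, Cd274 and Cd276 in each of the 36 libraries, by time and stimulation; points are libraries (replicates 1 to 4 from left to right) and bars are means of 4. The TME-CM libraries of Cd40 are at 51.8 to 98.0 CPM at 12 h and 22.9 to 42.3 CPM at 24 h, above all control libraries of the same time.

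Cd274, which encodes PD-L1 (chromosome 19, 29362107 to 29388095), was higher at 12 h in TME-CM than in unstimulated EGCs. It stood at 3.16, 7.04, 10.7 and 14.1 CPM in TME-CM, 1.65, 1.43, 2.14 and 2.66 CPM in H-CM and 1.58, 0, 1.09 and 1.67 CPM in unstimulated EGCs. Every TME-CM library was above every control library. The log2 fold change was 2.92 over unstimulated EGCs (SE 0.75, adjusted p = 0.0249) and 2.13 over H-CM (95% interval 0.68 to 3.58, adjusted p = 0.167), the latter called by DESeq2 (adjusted p = 0.027). The call over unstimulated EGCs was lost without any 1 of 5 libraries, TME-CM replicates 3 and 4 and unstimulated replicates 1, 3 and 4 (adjusted p between 0.0511 and 0.144), and in the fit of all 36 libraries (adjusted p = 0.203).

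At 24 h Cd274 stood at 1.3, 5.23, 4.12 and 1.71 CPM in TME-CM EGCs, 2.49, 1.46, 1.73 and 0.571 CPM in H-CM and 1.14, 1.46, 0.962 and 0.56 CPM in unstimulated EGCs. The groups overlapped. Cd274 had a log2 fold change of 0.82 over H-CM (95% interval -0.42 to 2.07, adjusted p = 0.573) and 1.53 over unstimulated EGCs (adjusted p = 0.152). At 6 h, TME-CM replicate 3 had 155 counts (54.4 CPM) and replicate 1 had 0, in 2 libraries of low gene detection. Replicates 2 and 4 were at 10.03 and 11.96 CPM. An annotated transcript on the opposite strand overlaps exons of Cd274, and another overlaps exons of Cd276, and reads of the 2 strands cannot be told apart in these counts, since it is not given whether strand was used.

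Cd276, or B7-H3 (chromosome 9, 58524300 to 58555033), was present in every group and was not called in any comparison. At 24 h it stood at 15.9, 14.8, 20.4 and 19.6 CPM in TME-CM EGCs, 23.8, 18.7, 27.9 and 21.1 CPM in H-CM and 28.5, 21.7, 25.3 and 21.6 CPM in unstimulated EGCs. The TME-CM libraries were below all unstimulated libraries and overlapped those of H-CM. The log2 fold change was -0.44 over unstimulated EGCs (95% interval -0.84 to -0.03, adjusted p = 0.21) and -0.37 over H-CM (95% interval -0.77 to 0.04, adjusted p = 0.386). At 12 h it was -0.32 over H-CM (95% interval -0.83 to 0.19) and -0.34 over unstimulated EGCs (95% interval -0.85 to 0.18). All TME-CM libraries of 12 h (14.9 to 20.4 CPM) were below all H-CM libraries (20.9 to 23.3 CPM) and overlapped the unstimulated ones (18.4 to 26.9 CPM). At 6 h Cd276 was at 0 and 0.351 CPM in TME-CM replicates 1 and 3 and at 15.0 and 18.3 CPM in replicates 2 and 4.

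**Figure D4:**
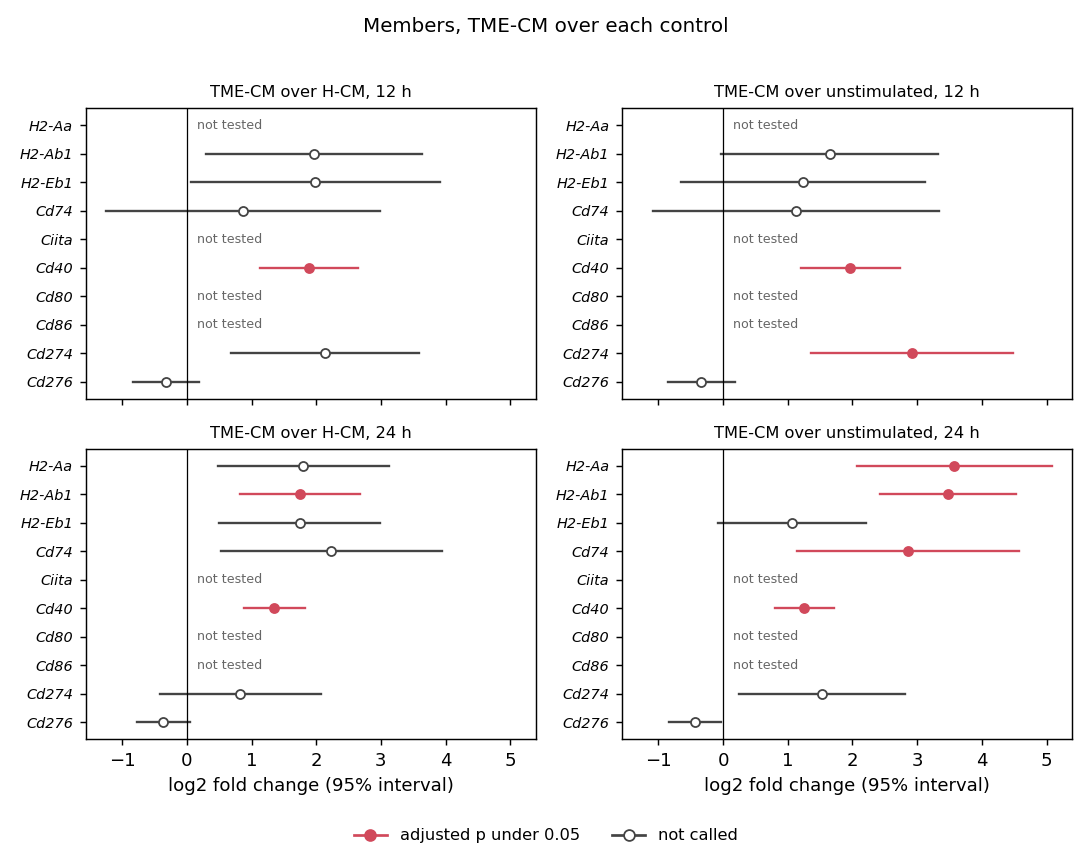
Log2 fold change of TME-CM EGCs relative to H-CM (left) and to unstimulated EGCs (right) at 12 h (top) and 24 h (bottom) for the 10 members, with 95% intervals; filled red points have an adjusted p under 0.05, and members below the filter are marked as not tested. Cd40 is called in all 4 panels, at 1.25 to 1.97, and Cd276 lies between -0.44 and -0.32.

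Changes between 12 h and 24 h were compared in 1 fit of 24 libraries. In TME-CM EGCs 0 of 7 members were called, beside 0.626% of all genes, with 2 at an unadjusted p under 0.05, Cd40 and Cd274, and DESeq2 called 1, Cd40. In H-CM EGCs 0 of 7 were called (0.00763% of all genes), with 0 at an unadjusted p under 0.05. In unstimulated EGCs 0 of 7 were called (0.0153%), with 2 at an unadjusted p under 0.05, H2-Aa and H2-Ab1. DESeq2 called 0 in both and left 5 adjusted p as NA in each. The lower level of Cd274 in TME-CM EGCs of 24 h, 3.09 ± 1.89 CPM against 8.77 ± 4.73 CPM at 12 h, a log2 fold change of -1.68, was not called (adjusted p = 0.385). The change of the difference between TME-CM and H-CM from 12 h to 24 h was called in 0 of 7 members and in 0% of all genes, with 0 members at an unadjusted p under 0.05 and 0 by DESeq2. No member was thus shown to differ more at 1 time than at the other.

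Of the genes that act around these members, 6 lists were described by counts. The 3 largest called changes of a list are named for TME-CM against H-CM at 24 h, and genes named for other comparisons were chosen after their values were seen. The transcription factors of the class II promoter (Rfx5, Rfxap, Rfxank, Nfya, Nfyb, Nfyc and Creb1) were all tested, and 0 of 7 were called at 24 h against either control by edgeR or DESeq2, with 0 at an unadjusted p under 0.05 and median log2 fold changes of 0.02 over H-CM and 0.16 over unstimulated EGCs. Of the 11 class II chaperone and processing genes, 8 were tested at 24 h and 0 were called against H-CM (3 at an unadjusted p under 0.05, and 1 by DESeq2). Their median log2 fold change was 0.19, beside 0.00 for all genes. Against unstimulated EGCs, the cathepsin genes Ctsl and Ctsb, lysosomal proteases, were higher (log2 1.01 and 0.68), and Ifi30, a lysosomal thiol reductase, was lower (-0.80).

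The interferon gamma signalling list held 12 genes, all tested. Against H-CM at 24 h, 3 were higher and 0 lower: Socs3, a feedback inhibitor of cytokine receptors (log2 2.13, 76.7 ± 12.7 against 17.5 ± 4.67 CPM), Irf1, an interferon-induced transcription factor (0.96, 77.5 ± 20.4 against 39.5 ± 7.32 CPM) and the receptor chain Ifngr2 (0.95, 40.0 ± 6.09 against 21.4 ± 6.29 CPM). Against unstimulated EGCs 6 of 12 were higher and 0 lower, and the median log2 fold changes were 0.56 and 1.01.

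Of the 14 other costimulatory and checkpoint ligands, 6 passed the filter at 24 h, and 3 were higher in TME-CM than in H-CM EGCs with 0 lower (median log2 0.80). They were Lgals9, the galectin that binds TIM-3 (log2 0.85, 123 ± 19.4 against 67.6 ± 17.9 CPM), Nectin2, a ligand of CD226 and TIGIT (0.83, 149 ± 36.4 against 84.1 ± 15.3 CPM), and Cd47, the ligand of SIRPA (0.83, 235 ± 51.2 against 132 ± 53.2 CPM). Of the 10 CD40 signalling genes, 9 were tested at 24 h, with 0 called against H-CM (4 at an unadjusted p under 0.05, and 2 by DESeq2, median log2 0.51) and 4 higher than in unstimulated EGCs. These 4 were the noncanonical NF-kappa B subunits Nfkb2 (log2 0.77) and Relb (0.88) and the ubiquitin ligases Birc3 (1.57) and Birc2 (0.66). For MHC class I, 9 of 13 presentation genes were higher than in H-CM at 24 h and 0 lower (median log2 0.96). The largest changes were those of the immunoproteasome subunits Psmb8 (log2 2.83) and Psmb9 (2.57) and of the heavy chain H2-K1 (2.10, 202 ± 81.9 against 46.1 ± 19.1 CPM). These counts stand beside the 5.4% of all genes called against H-CM at 24 h, and those against unstimulated EGCs beside 9.52%.

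**Figure D5:**
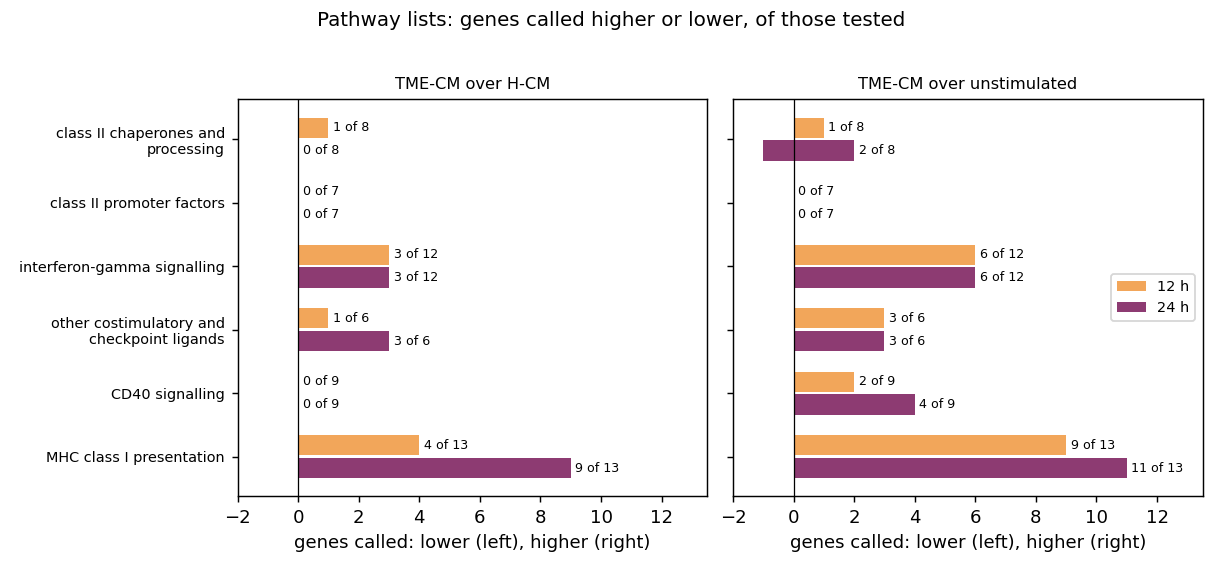
Number of genes called higher (right of 0) or lower (left of 0) in TME-CM EGCs against H-CM (left panel) and unstimulated EGCs (right panel) in each of 6 pathway lists, at 12 h and 24 h; labels give the number called higher of those tested. MHC class I has 9 of 13 and the class II promoter factors 0 of 7 against H-CM at 24 h.

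Among genes outside the members, those whose log2 CPM followed Cd40 most closely over the 24 libraries of 12 h and 24 h were Gbp5, an interferon-induced GTPase (Pearson r = 0.87), Ptges, a prostaglandin E synthase (0.87), and Cxcl16, a chemokine (0.87). For Cd276 they were Trim47 (0.76), Pdgfrb, a receptor of pericytes and fibroblasts (0.75), and Tbcc (0.72). They ranked highest among 10191 genes averaging 5 CPM or more, and the libraries share stimulation, time and depth. Among the members, H2-Aa was closest to Cd74 (r = 0.77) and H2-Ab1 to Cd274 (0.72), while H2-Aa and H2-Ab1, the chains of 1 molecule, had r = 0.38 at these low counts.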

How the data were processed

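RNA of 36 libraries was counted per gene by the authors. Per the methods and the submitters' processing notes, Lexogen QuantSeq 3′ libraries were quality checked with FastQC 0.11.7, aligned to mm10 with HISAT2, handled with SAMtools 1.5, and counted with HT-seq after reads with several positions were discarded. The annotation, the strand setting and the use of molecular identifiers are not given in the sources used here. The deposited values are raw counts, and multi-copy genes may lose reads.

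Counts were tested with edgeR 4.0.16 (R 4.3.3) by the quasi-likelihood test with TMM scaling, after filterByExpr with a minimum count of 10, in 1 fit of 12 libraries per time point and 1 of 24 libraries for 12 h and 24 h. This kept 9256, 12156, 12713 and 13105 genes, and p values were adjusted over them by Benjamini-Hochberg. Standard errors came from the fold change and its F value. Low counts limit the precision, and limits taken from 3 counts cover counting error only. The script was tested on simulated data.

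All 10 members are named, whether tested or not, and of each list the 3 largest called changes in TME-CM against H-CM at 24 h. The members and lists were chosen with earlier results of these data known. Alternatives were DESeq2 1.42.0, its size factors, no filter, a replicate block, Yam1 left out, other sets of libraries, each library left out, and, chosen after seeing the data, 3 libraries of 6 h left out. No 2 libraries of a group agreed within sampling noise (lowest chi-square per degree of freedom 3.32 over 54 pairs). Listed genes were matched by symbol or RefSeq synonym (Nectin2 as Pvrl2).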

Additional observations from a re-analysis of the deposited data

Results flagged for a closer look

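In 8 of the 61 sets of 4 libraries screened (each member in each group with a mean of at least 1 CPM), 1 library lay apart from the other 3 by more than Dixon's 95% critical value, and chance flags about 1 in 20 such groups. At 6 h, unstimulated replicate 3, a library of 256453 counts, was high for H2-Aa (34.2 CPM, 7 counts) and Cd274 (14.7 CPM, 3 counts), unstimulated replicate 2 was high for Cd80 (4.71 CPM), and TME-CM replicate 2 was high for H2-Ab1 (5.02 CPM). At 12 h, TME-CM replicate 4 was high for H2-Ab1 (11.5 CPM), TME-CM replicate 3 was low for Cd74 (2.06 CPM), and H-CM replicate 3 was low for Cd40 (9.27 CPM). At 24 h, H-CM replicate 1 was high for Cd40 (15.8 CPM), where the other 3 libraries all lay near 12.6 CPM.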

How the results depend on the processing

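Of 560 values of single members under alternatives, 530 kept their direction and their side of the threshold, 20 lost a call, 8 gained 1 and 2 changed sign. Most of these values belong to results that were not called and had no call to lose. Over unstimulated EGCs, the call of Cd74 at 24 h held in 7 of 14 alternatives and that of Cd274 at 12 h in 9 of 15. The calls of Cd40 at 12 h held in all 15 against each control. Both sign changes were of Cd276 at 6 h with 3 libraries left out, to 0.0407 over H-CM and 0.31 over unstimulated EGCs. With all 36 libraries in 1 fit, the members called moved at 6 h to 1 against H-CM (Cd40) and to 2 against unstimulated EGCs (Cd40 higher, H2-Eb1 lower), at 12 h to 1 against unstimulated EGCs, and at 24 h to 0 against H-CM and 0 against unstimulated EGCs. DESeq2 called 2 against H-CM at 12 h, and only the groups compared gave 2 against unstimulated EGCs at 24 h, with 4 members tested. For TME-CM EGCs of 24 h against 12 h, 1 member, Cd40, was called lower without the filter, with the replicate block, by DESeq2 and with only the groups compared. With single libraries left out, the members called ranged from 1 to 2 against unstimulated EGCs at 12 h and from 1 to 2 against H-CM at 24 h. The cause of these changes was not tested. With the replicate block, 3 members were called against unstimulated EGCs at 24 h in place of 4, without Cd74 (log2 2.64, adjusted p = 0.0781), and apart from TME-CM EGCs of 24 h against 12 h the other comparisons kept their number of calls. Same-numbered libraries had a correlation of deviations over 0.1 in 1 of 12 pairs of 6 h, in 2 of 12 h and in 3 of 24 h. By this measure a pairing by number was not shown, although the macrophage marker sums followed the number. With the 3 libraries of 6 h left out, 0 of 7 members tested were called in each comparison.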
